A study of Mus musculus with 8 samples.

Results

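The genes described here are 41 enzymes and scaffold proteins that write, remove or read marks on chromatin, chosen by name. They comprise histone acetyltransferases, nuclear receptor coactivators, sirtuins, subunits of corepressor and deacetylase complexes, histone and DNA methyltransferases, a demethylase, a bromodomain reader and remodelling ATPases. Of the 41, 36 were tested among 12393 genes in all, each through the probe set (the group of short probes read as 1 value) of highest mean among those annotated to that gene alone. Ep300, Kat5, Kat8 and Ncor1 were not analysed here, and neither was Sap18, whose probe sets are shared with Sap18b.

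Hippocampal RNA came from 8 male SCID mice aged 12 weeks, a strain without mature B and T lymphocytes, all of which underwent contextual fear conditioning. The 4 FTY720 mice received the drug by mouth at 1 mg/kg in saline for 3 days, and the 4 vehicle mice received saline alone by mouth for the same 3 days. FTY720 (fingolimod) is a sphingosine analogue given in multiple sclerosis. Tissue of a single mouse, collected 17 hours past its final dose and 1 hour past the memory consolidation test, was hybridised to each Affymetrix 3' array. Values below are on the log2 scale of the deposited table, and values per mouse are listed in the order of FTY720 mice 1, 4, 5 and 6 and of vehicle mice 13, 14, 15 and 16. Differences are FTY720 minus vehicle with the standard error (SE) of a limma fit over all genes, and every n is 4 mice per group.

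DNA in the nucleus is wound around histones, and acetyl groups placed on histone tails by acetyltransferases loosen that packing and recruit bromodomain proteins. Deacetylases take the acetyl groups off, working inside multi-subunit corepressor complexes named Sin3, NuRD and CoREST. Histone acetylation in hippocampal neurons is well known for its part in forming lasting memories, and Crebbp and Kat2b are among the acetyltransferases whose loss impairs memory in mice. Phosphorylated FTY720 has been proposed as an inhibitor of class I deacetylases. The comparison asks whether RNA of the surrounding machinery differed with the drug, and it measures RNA only, not the activity of any enzyme.

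Measured differences in RNA of the chromatin machinery between FTY720 and vehicle mice ran from -0.25 to 0.14. None of the 36 genes passed an adjusted p of 0.05 (limma with Benjamini-Hochberg adjustment over all 12393 genes), with adjusted p values from 0.719 to 0.994, and 0 of all genes passed (0%). At an unadjusted p under 0.05 there were 2 of 36, both lower in FTY720 mice, where 6.64% of all genes met that threshold, 2.78% on the lower side and 3.86% on the higher. These were Kat2b, an acetyltransferase, at -0.25, and Smarca2, a remodelling ATPase, at -0.13. Group values did not overlap in 4 of 36, against 4.49% of all genes, and the 4 were Smarca2, Rcor1, Kdm1a and Rbbp4. All 4 lay lower in FTY720 mice, a pattern met by 1.78% of all genes, with 2.72% lying wholly higher. The count of 4 was 2 after quantile normalization, 2 with the probe sets of each gene averaged and 1 without probe sets ending in _x_at or _s_at, which can match several transcripts. Over all genes, 4.59%, 4.38% and 4.4% did not overlap in these settings. By sign, 15 of the 36 were higher and 21 lower (58.3%, beside 46.5% of all genes). The median difference was -0.03, beside 0.01 over all genes.

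The confidence intervals bound the size of a difference in these measurements. For 31 of the 36 genes the 95% confidence interval lay inside 1.2-fold in either direction (0.26 on the log2 scale), and for all 36 inside 1.5-fold (0.58). Over all genes these shares were 69.8% and 97.5%. The 36 genes were brighter, at a median level of 8.61 beside 7.17 over all genes, and the part of level in these shares was not tested. The 5 with wider intervals were Kat2b, Ncoa1, Ncoa2, Sin3b and Brd2. A difference of 0.1 or more was measured in 4 genes, and the other 32 lay below it. Summaries of this array type are known to compress true fold changes, so the bounds hold for measured values.

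**Figure D1:**
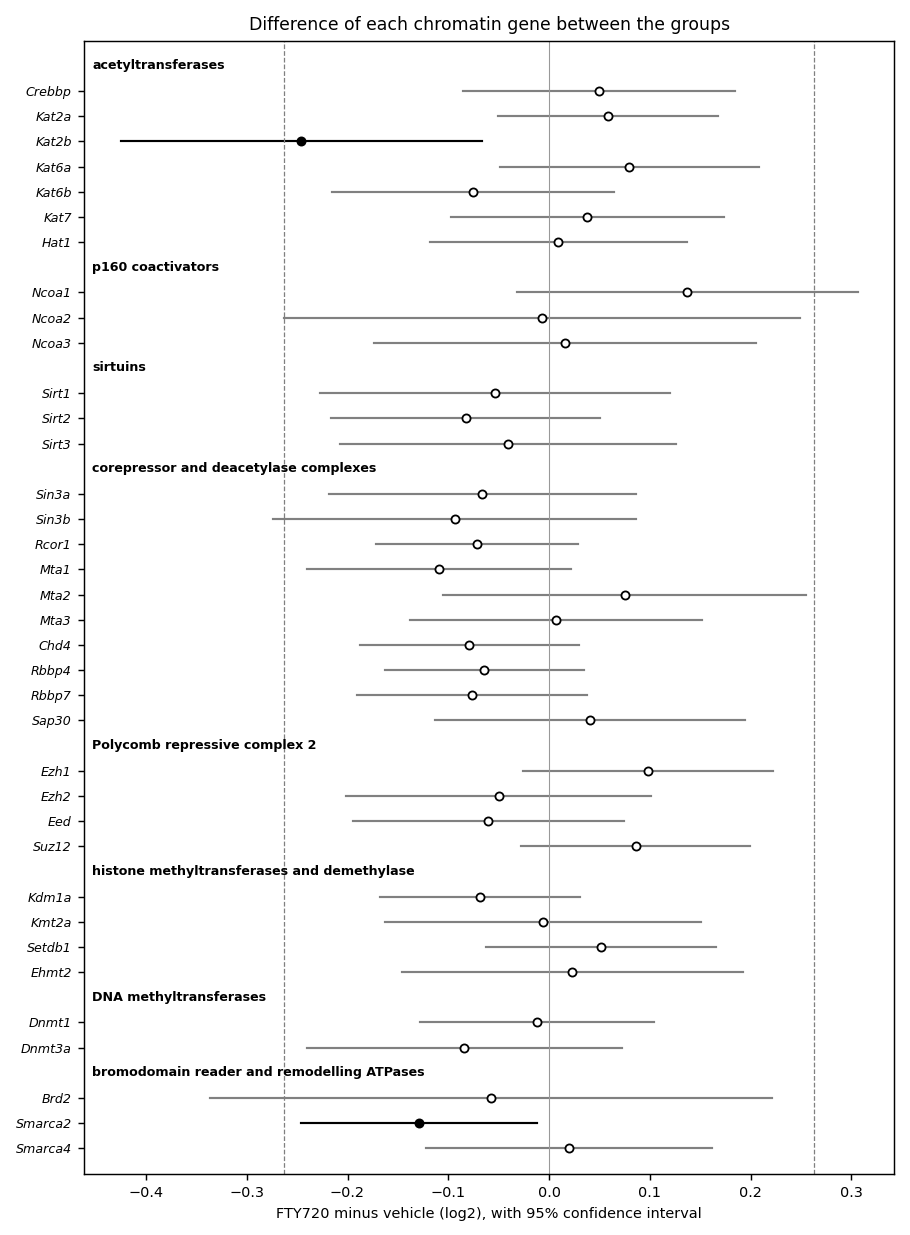
Difference of each of the 36 chromatin genes, FTY720 minus vehicle on the log2 scale, grouped by role. Points are limma estimates, bars are 95% confidence intervals (n = 4 mice per group), filled points have an unadjusted p under 0.05 and dashed lines mark 1.2-fold. Kat2b and Smarca2 are the filled points, and the intervals of 31 genes lie between the dashed lines.

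The spread between mice was of the same order as the differences. Over the 8 mice a gene's values spanned between 0.14 and 0.56, with a median of 0.27, and the median SD within groups was 0.08, beside 0.10 for all genes. Vehicle 15 held the lowest value of 13 of the 36 genes and vehicle 16 the highest value of 12. Both arrays stood apart over all genes too, vehicle 15 on the first principal component (35.7% of the variance) and vehicle 16 on the second (19.6%), although array medians were close, from 6.68 to 6.72. The difference between 5' and 3' Gapdh control probe sets becomes more negative as RNA degrades. It was -1.08, -0.80, -1.05 and -0.85 in FTY720 mice, against -1.09, -1.18, -1.07 and -1.46 in vehicle mice. All vehicle mice but vehicle 15 were thus more negative than every FTY720 mouse. Of 9 measured hippocampal neuron markers, 8 had mean levels above the median gene (7.17), from 8.21 for Rbfox3 to 11.15 for Nrgn. The exception was Prox1 at 3.29, which differed by 0.18 at an unadjusted p under 0.05. Among other cell types of the hippocampus, 14 of 16 measured oligodendrocyte genes were lower in FTY720 mice at an unadjusted p under 0.05. At that threshold were also 1 of 10 astrocyte genes (lower), 0 of 11 microglia genes and 2 of 10 endothelial genes (1 higher, 1 lower), beside 6.64% of all genes. Of the markers of other tissue, 6 of 13 thalamus and habenula genes were lower in FTY720 mice at that threshold. Relative to the mean of all mice, the thalamus list spanned -0.46 to -0.23 in FTY720 mice, against -0.33 to 1.36 in vehicle mice, with vehicle 15 highest. All 7 measured striatum genes had lower means in FTY720 mice, none at that threshold. The striatum list spanned -0.32 to -0.20 in FTY720 mice, against -0.28 to 1.2048 in vehicle mice, with vehicle 15 highest and vehicle 16 next at 0.34. All 8 choroid plexus genes had lower means too, none at that threshold, and that list spanned -1.35 to 0.97 in FTY720 mice, against -0.98 to 1.49 in vehicle mice. Their part in the values below was not tested unless a value is given.

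**Figure D2:**
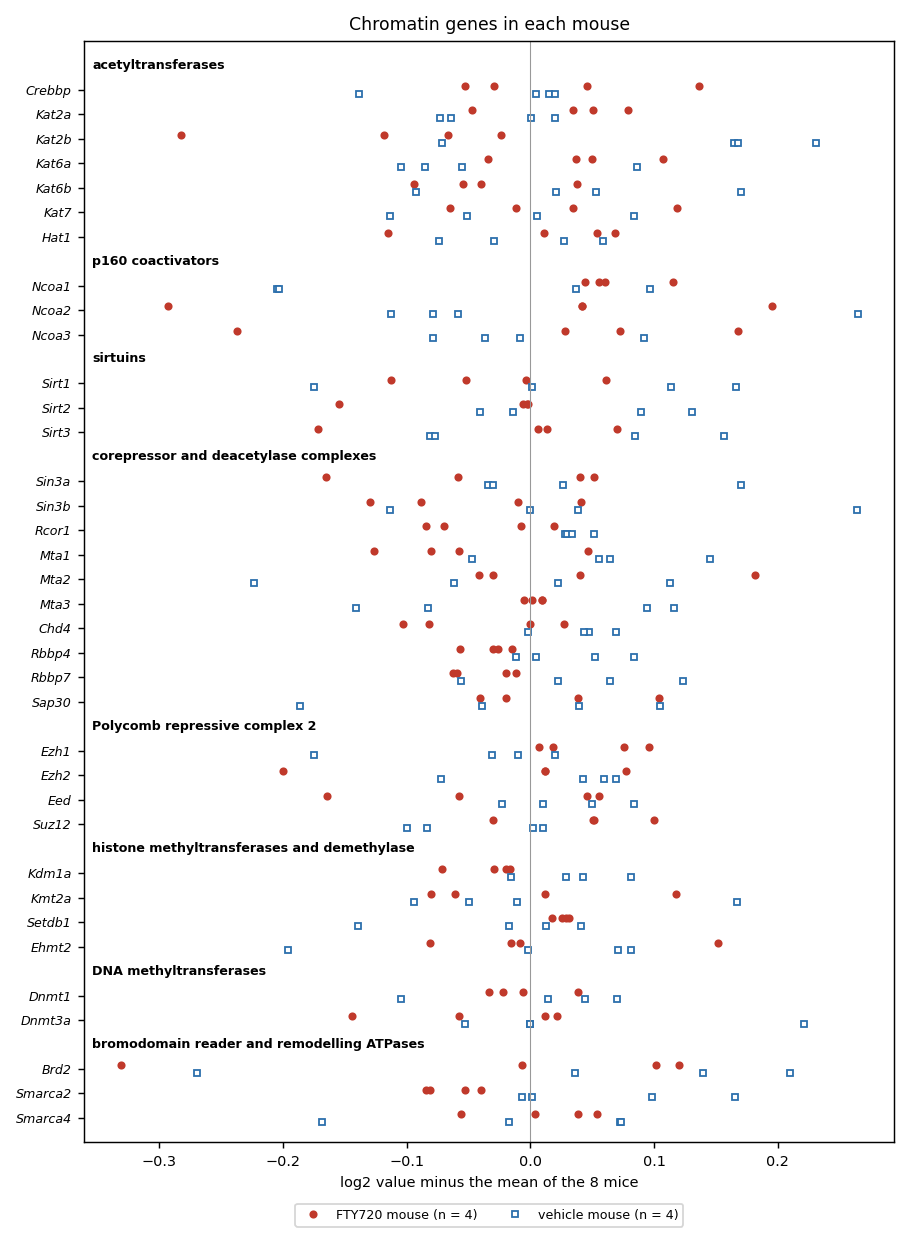
Log2 value of each chromatin gene in each mouse, minus the gene's mean over all 8 mice (filled circles FTY720, open squares vehicle). For most genes the groups overlap, and for Smarca2, Rcor1, Kdm1a and Rbbp4 they do not.

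Among the acetyltransferases, Kat2b had the lowest unadjusted p of the 36 genes. Kat2b (PCAF) acetylates histone H3 within the SAGA and ATAC coactivator complexes. Its log2 values were 8.80, 8.90, 8.85 and 8.64 in FTY720 mice, against 8.85, 9.09, 9.15 and 9.09 in vehicle mice. FTY720 6 was the lowest mouse, and vehicle 13 lay within the FTY720 range while the other vehicle mice lay above it. The difference was -0.25 (SE 0.08, 95% interval -0.42 to -0.07), or 0.843-fold, with an unadjusted p of 0.0123 and a limma adjusted p of 0.719. It ranged from -0.31 to -0.19 when any 1 mouse was left out. Without vehicle 15 and 16 together it was -0.17 and no longer at an unadjusted p under 0.05. The other probe set of Kat2b was much dimmer, at a mean of 4.09, and differed by -0.04 (SE 0.09).

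Kat2a (GCN5), the close relative of Kat2b that occupies the same place in these complexes, had values of 8.59, 8.55, 8.56 and 8.46 in FTY720 mice, against 8.45, 8.53, 8.44 and 8.51 in vehicle mice. The groups overlapped, and the difference was 0.06 (SE 0.05, 95% interval -0.05 to 0.17), on the other side of 0 from Kat2b. Dimmer probe sets of Kat2a gave -0.07 (SE 0.07) and 0.10 (SE 0.08), so its probe sets did not share a sign. Promoter windows of this pair are shown because Kat2b carried the largest difference of the group and Kat2a is its partner. They span the start of the gene and are from RefSeq on build GRCm38.p6. The window of Kat2b lies on the plus strand at chr17:53566721-53567020 and is the more upstream of 2 listed, and that of Kat2a lies on the minus strand at chr11:100712418-100712717. Capitals mark TGACG or its reverse complement CGTCA, part of the site bound by the transcription factor CREB, and GGGCGG or its reverse complement CCGCCC, the GC box bound by Sp1.
Kat2b: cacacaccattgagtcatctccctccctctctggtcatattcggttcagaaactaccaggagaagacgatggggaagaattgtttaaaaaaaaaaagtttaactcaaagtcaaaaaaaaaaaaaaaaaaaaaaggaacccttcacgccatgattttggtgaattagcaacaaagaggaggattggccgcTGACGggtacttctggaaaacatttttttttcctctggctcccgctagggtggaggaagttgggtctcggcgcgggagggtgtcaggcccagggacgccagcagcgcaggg
Kat2a: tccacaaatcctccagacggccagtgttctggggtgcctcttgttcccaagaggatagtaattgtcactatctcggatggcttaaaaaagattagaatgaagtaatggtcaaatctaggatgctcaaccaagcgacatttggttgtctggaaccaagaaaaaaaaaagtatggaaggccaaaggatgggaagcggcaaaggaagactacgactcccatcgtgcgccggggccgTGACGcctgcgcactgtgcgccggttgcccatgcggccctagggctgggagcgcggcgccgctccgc
Each of these windows held the CREB site letters at 1 place and no GC box. The CREB site letters were present in 28.4% and the GC box in 57.5% of 9887 promoter windows of tested genes. Kat2b had 47.0% G and C with 11 CG dinucleotides, and Kat2a had 54.3% with 19. A match of letters is a description and not a measured binding site.

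Crebbp (CBP), the coactivator that CREB recruits to acetylate histones at its target genes, stood at 9.10, 9.01, 8.91 and 8.93 in FTY720 mice, against 8.98, 8.97, 8.82 and 8.98 in vehicle mice. FTY720 1 was the highest mouse and vehicle 15 the lowest, and the difference was 0.05 (SE 0.06, 95% interval -0.09 to 0.18). Kat6a (MOZ), the catalytic subunit of a complex that acetylates histone H3, stood at 8.01, 8.07, 7.93 and 7.9966 in FTY720 mice, against 8.05, 7.90, 7.86 and 7.87 in vehicle mice. Here 3 of 4 vehicle mice lay below every FTY720 mouse and vehicle 13 lay among the higher ones, with a difference of 0.08 (SE 0.06, 95% interval -0.05 to 0.21). Hat1, which acetylates newly made histone H4 before it is assembled into chromatin, stood at 7.88, 7.92, 7.94 and 7.75 in FTY720 mice, against 7.80, 7.90, 7.93 and 7.84 in vehicle mice. The groups of Hat1 covered nearly the same range, and the difference was 0.01 (SE 0.06, 95% interval -0.12 to 0.14). The remaining acetyltransferases were Kat6b, the relative of Kat6a, at -0.08 (SE 0.06), and Kat7, which acetylates histone H3 near replication origins, at 0.04 (SE 0.06).

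The p160 coactivators bind ligand-bound nuclear receptors and bring Crebbp and other acetyltransferases to them. Ncoa1 (SRC-1) was the gene with the largest positive difference of the 36. Its values were 10.17, 10.23, 10.17 and 10.16 in FTY720 mice, against 10.21, 10.15, 9.91 and 9.91 in vehicle mice. The FTY720 mice lay close together, vehicle 13 and 14 lay beside them, and vehicle 15 and 16 were the low mice, on which the difference rested. The difference was 0.14 (SE 0.08, 95% interval -0.03 to 0.31), with a limma adjusted p of 0.790. With any 1 mouse left out it ranged from 0.09 to 0.19, and without vehicle 13 it was 0.19 and at an unadjusted p under 0.05. Ncoa1's second probe set gave 0.08 (SE 0.08). Ncoa2 and Ncoa3 differed by -0.01 (SE 0.11) and 0.02 (SE 0.08).

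Sirtuins are deacetylases that use NAD+ and lie outside the classes proposed as targets of the drug. All 3 had lower means in FTY720 mice, as had 46.5% of all genes, and none was at an unadjusted p under 0.05. Sirt2, which deacetylates tubulin in the cytoplasm and is abundant in myelin-forming oligodendrocytes, stood at 9.59, 9.60, 9.59 and 9.44 in FTY720 mice, against 9.58, 9.73, 9.56 and 9.69 in vehicle mice. FTY720 6 was the low mouse and the other FTY720 mice lay within the vehicle range, and the difference was -0.08 (SE 0.06, 95% interval -0.22 to 0.05). Sirt1, a nuclear deacetylase of histones and transcription factors, stood at 7.76, 7.94, 7.82 and 7.87 in FTY720 mice, against 7.88, 7.70, 8.04 and 7.99 in vehicle mice. Its vehicle mice spanned the whole FTY720 range, and it differed by -0.05 (SE 0.08, 95% interval -0.23 to 0.12). Sirt3, the main mitochondrial deacetylase, stood at 9.41, 9.35, 9.34 and 9.17 in FTY720 mice, against 9.42, 9.49, 9.26 and 9.26 in vehicle mice. The groups overlapped, with FTY720 6 lowest and vehicle 14 highest, and the difference was -0.04 (SE 0.07, 95% interval -0.21 to 0.13).

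Class I deacetylases act through the Sin3, NuRD and CoREST complexes. Subunits of these complexes were lower in 7 of 10 cases, where 46.5% of all genes were lower. Their median difference was -0.07, and none was at an unadjusted p under 0.05. Without probe sets ending in _x_at or _s_at, 3 of 10 were lower. Mta1, a NuRD subunit that holds the deacetylases Hdac1 and Hdac2, stood at 8.40, 8.35, 8.52 and 8.42 in FTY720 mice, against 8.53, 8.54, 8.43 and 8.62 in vehicle mice. FTY720 5 lay among the vehicle mice and vehicle 15 among the FTY720 mice, and the difference was -0.11 (SE 0.06, 95% interval -0.24 to 0.02). It was -0.14 and at an unadjusted p under 0.05 when either FTY720 5 or vehicle 15 was left out, and -0.02 with the Gapdh control difference as a covariate. Chd4, the ATPase of NuRD, stood at 8.56, 8.45, 8.54 and 8.43 in FTY720 mice, against 8.61, 8.58, 8.53 and 8.58 in vehicle mice. Vehicle 13, 14 and 16 lay above every FTY720 mouse, while vehicle 15 lay below FTY720 1 and FTY720 5. The difference was -0.08 (SE 0.05, 95% interval -0.19 to 0.03).

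Rcor1, the CoREST scaffold that links deacetylases to the demethylase Kdm1a, had values of 7.96, 7.98, 7.90 and 7.88 in FTY720 mice, against 8.02, 7.99, 7.9958 and 7.9996 in vehicle mice. Every FTY720 mouse lay below every vehicle mouse, with a gap much smaller than the FTY720 range, and the difference was -0.07 (SE 0.04, 95% interval -0.17 to 0.03). The other 2 probe sets of Rcor1 differed by 0.00096 (SE 0.06) and 0.05 (SE 0.09), so the shift was not shared by them. Rbbp4, a histone chaperone found in NuRD, Sin3 and Polycomb complexes, stood at 11.65, 11.67, 11.65 and 11.62 in FTY720 mice, against 11.67, 11.68, 11.73 and 11.76 in vehicle mice. Its groups did not overlap either, and the difference was -0.06 (SE 0.04, 95% interval -0.16 to 0.03). The other probe sets of Rbbp4 lay on the opposite side of 0, at 0.16 (SE 0.09) and 0.20 (SE 0.12). For Rbbp7, its relative, the 2 probe sets were near the same level (11.63 and 11.58) and gave -0.08 and 0.04.

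Sin3a, the scaffold of the Sin3 complex, stood at 7.24, 7.23, 7.02 and 7.13 in FTY720 mice, against 7.21, 7.15, 7.16 and 7.36 in vehicle mice. FTY720 5 was lowest and vehicle 16 highest, with overlap between the groups and a difference of -0.07 (SE 0.07, 95% interval -0.22 to 0.09). Its relative Sin3b differed by -0.09 (SE 0.08). Mta2 and Mta3, the other NuRD scaffolds, differed by 0.08 (SE 0.08) and 0.01 (SE 0.06), and Sap30, a Sin3 subunit, by 0.04 (SE 0.07).

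Polycomb repressive complex 2 trimethylates lysine 27 of histone H3 and keeps genes silent. Its alternative catalytic subunits differed in sign, with Ezh1, the form typical of non-dividing cells, at 0.10 (SE 0.06, 95% interval -0.03 to 0.22) and Ezh2, the form typical of dividing cells, at -0.05 (SE 0.07, 95% interval -0.20 to 0.10). Ezh1 stood at 9.15, 9.08, 9.09 and 9.17 in FTY720 mice, against 9.04, 9.06, 8.90 and 9.09 in vehicle mice. Vehicle 16 lay within the FTY720 range and the other vehicle mice below it, vehicle 15 lowest. Ezh2 stood at 6.74, 6.80, 6.52 and 6.74 in FTY720 mice, against 6.77, 6.78, 6.79 and 6.65 in vehicle mice. FTY720 5 was the low mouse for Ezh2 and the other 3 lay within or above the vehicle range. The core subunit Suz12, which the enzyme needs to be stable, stood at 9.16, 9.15, 9.20 and 9.07 in FTY720 mice, against 9.11, 9.00, 9.11 and 9.02 in vehicle mice. The groups overlapped and the difference was 0.09 (SE 0.05, 95% interval -0.03 to 0.20). Eed, which binds the finished mark, differed by -0.06 (SE 0.06).

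Kdm1a (LSD1), the demethylase of CoREST that takes methyl groups off lysine 4 of histone H3, stood at 9.86, 9.91, 9.91 and 9.90 in FTY720 mice, against 9.96, 10.01, 9.97 and 9.91 in vehicle mice. Every FTY720 mouse lay below every vehicle mouse, although vehicle 16 (9.9116) and FTY720 4 (9.911) were all but equal, and the difference was -0.07 (SE 0.04, 95% interval -0.17 to 0.03). Its second probe set differed by -0.0034 (SE 0.05). Kmt2a (MLL1), a methyltransferase of the same lysine that is needed for memory in mice, stood at 8.69, 8.87, 8.76 and 8.67 in FTY720 mice, against 8.74, 8.66, 8.70 and 8.92 in vehicle mice. The groups overlapped over nearly their whole range, with a difference of -0.01 (SE 0.07, 95% interval -0.16 to 0.15). The lysine 9 methyltransferases Setdb1 and Ehmt2 (G9a) differed by 0.05 (SE 0.05) and 0.02 (SE 0.08). Ehmt2 was also read by a dimmer probe set, at a mean of 5.66, which gave 0.17 (SE 0.08).

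DNA methyltransferases place methyl groups on cytosine. Dnmt3a, the enzyme for new methylation in neurons, stood at 9.14, 9.15, 9.07 and 8.98 in FTY720 mice, against 9.13, 9.07, 9.13 and 9.35 in vehicle mice. Vehicle 16 was the high mouse and FTY720 6 the low one, and the difference was -0.08 (SE 0.07, 95% interval -0.24 to 0.07). All 5 probe sets of Dnmt3a were lower in FTY720 mice, from -0.21 to -0.06. The one at -0.21 (SE 0.08) had groups that did not overlap and an unadjusted limma p of 0.0287. The difference of the brightest was -0.02 without vehicle 16, and 0.02 once the Gapdh control difference entered as a covariate. Dnmt1, which copies methylation to new strands, stood at 8.63, 8.64, 8.69 and 8.62 in FTY720 mice, against 8.69, 8.66, 8.55 and 8.72 in vehicle mice. Its groups overlapped and the difference was -0.01 (SE 0.05, 95% interval -0.13 to 0.10).

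Smarca2 (BRM) and Smarca4 (BRG1) are the alternative ATPases of the SWI/SNF complexes that slide and evict nucleosomes. Smarca2 stood at 10.21, 10.25, 10.21 and 10.24 in FTY720 mice, against 10.29, 10.29, 10.39 and 10.46 in vehicle mice. All 4 FTY720 mice lay below all vehicle mice and close together, while vehicle 16 and vehicle 15 were the highest. The difference was -0.13 (SE 0.05, 95% interval -0.25 to -0.01), or 0.914-fold, with an unadjusted p of 0.0344 and a limma adjusted p of 0.735. It ranged from -0.15 to -0.10 when any 1 mouse was left out, and was no longer at an unadjusted p under 0.05 without FTY720 1, FTY720 5, FTY720 6, vehicle 15 or vehicle 16. Without both vehicle 15 and 16 it was -0.06. Its second probe set differed by -0.04 (SE 0.13). Smarca4 stood at 9.73, 9.77, 9.79 and 9.68 in FTY720 mice, against 9.71, 9.80, 9.56 and 9.80 in vehicle mice. The groups overlapped, vehicle 15 was the low mouse, and the difference was 0.02 (SE 0.06, 95% interval -0.12 to 0.16).

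The promoter windows of this pair are shown for the same reason as above, with the same marking and build. Smarca2 lies on the plus strand at chr19:26604910-26605209, and Smarca4 on the plus strand at chr9:21615919-21616218.
Smarca2: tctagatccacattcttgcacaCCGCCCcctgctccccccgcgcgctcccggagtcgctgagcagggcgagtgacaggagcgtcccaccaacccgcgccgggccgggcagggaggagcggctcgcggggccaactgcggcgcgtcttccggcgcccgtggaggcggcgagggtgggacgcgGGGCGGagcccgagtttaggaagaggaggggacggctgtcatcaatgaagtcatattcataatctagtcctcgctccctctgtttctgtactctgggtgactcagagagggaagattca
Smarca4: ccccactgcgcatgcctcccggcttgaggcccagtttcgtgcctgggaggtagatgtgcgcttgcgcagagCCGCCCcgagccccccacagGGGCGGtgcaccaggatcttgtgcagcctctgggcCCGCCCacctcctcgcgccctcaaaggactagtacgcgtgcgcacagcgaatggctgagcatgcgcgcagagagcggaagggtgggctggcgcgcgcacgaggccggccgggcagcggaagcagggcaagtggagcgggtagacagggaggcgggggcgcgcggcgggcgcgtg
Both windows were richer in G and C than those of Kat2b and Kat2a, at 65.7% for Smarca2 with 29 CG dinucleotides and 72.3% for Smarca4 with 33. The GC box letters occurred at 2 places in Smarca2 and 3 in Smarca4, and the CREB site letters in neither window.

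Brd2, a bromodomain protein that reads acetylated histones, varied most between mice among these 3 genes. It stood at 10.21, 9.78, 10.23 and 10.10 in FTY720 mice, against 10.15, 10.25, 9.84 and 10.32 in vehicle mice. FTY720 4 and vehicle 15 were the low mice, so the groups covered nearly the same range. The difference was -0.06 (SE 0.12, 95% interval -0.34 to 0.22), and the second probe set gave 0.03 (SE 0.05).

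Probe sets of the same gene often disagreed at this scale. Of the 36 genes, 23 had more than 1 probe set, and in 13 of these the probe sets differed in sign while 10 shared it. The 10 were Kat2b, Kat7, Ncoa1, Sin3a, Ezh1, Ehmt2, Kdm1a, Dnmt1, Dnmt3a and Smarca2. Suz12 was read by 6 probe sets. The 4 brighter ones lay between 0.06 and 0.09 and the 2 dimmest at -0.06 and -0.20. Among all 74 probe sets of these genes, 5 had an unadjusted limma p under 0.05, 1 of them higher and 4 lower in FTY720 mice, where 6.75% of all 20380 probe sets did.

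**Figure D3:**
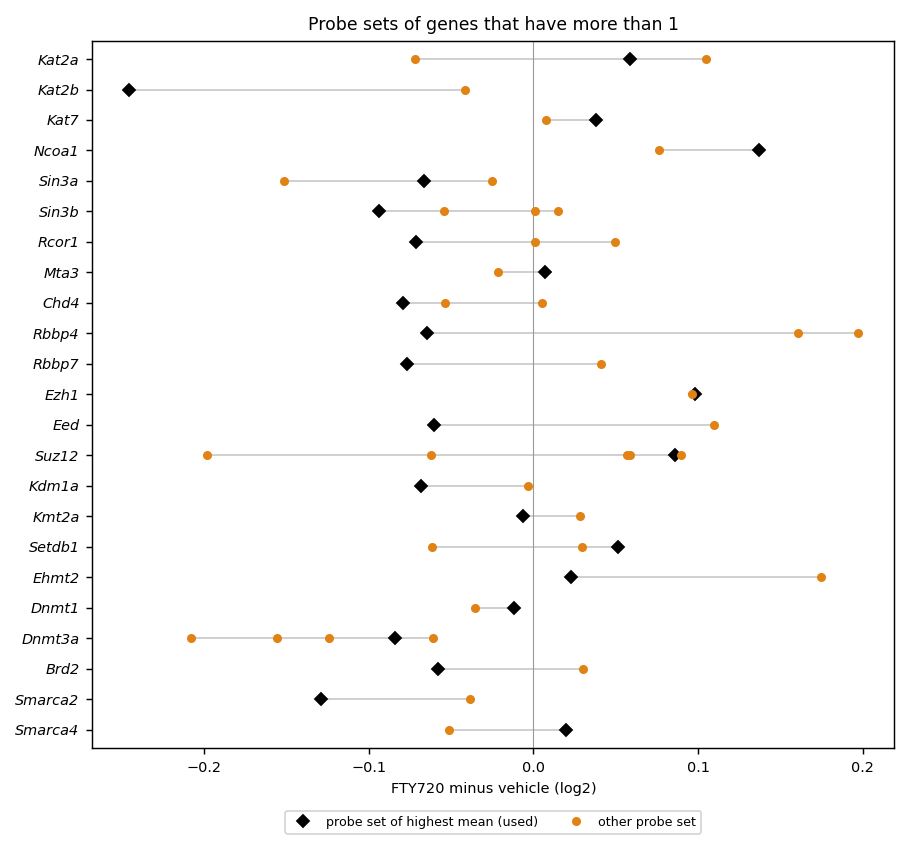
FTY720 minus vehicle difference (log2) of every probe set for the 23 chromatin genes that have more than 1. Diamonds are the brightest probe set, used in the text, and circles the others. Rbbp4 has its diamond below 0 and both circles above it, and all 5 points of Dnmt3a lie below 0.

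Whether related genes differed from each other in their response was tested within each mouse, as the log2 value of one gene minus that of the other, for 12 pairs. The values of a pair serve only to compare mice, since levels of different probes are not comparable. Kat2b minus Kat2a ranged from 0.17 to 0.35 in FTY720 mice, against 0.40 to 0.71 in vehicle mice. The groups did not overlap, with a difference of -0.30 (SE 0.08) and a two-sided exact permutation p of 0.0286, the smallest that 4 against 4 mice can give. Kat6b minus Kat6a ranged from 0.51 to 0.56 in FTY720 mice, against 0.58 to 0.89 in vehicle mice. Its groups did not overlap either, with a difference of -0.16 (SE 0.07) and the same p. For Smarca2 minus Smarca4 the difference was -0.15 (SE 0.08) with groups that overlapped (exact permutation p = 0.0571), and for Ezh2 minus Ezh1 it was -0.15 (SE 0.09) (exact permutation p = 0.257). After Benjamini-Hochberg adjustment over the 12 pairs none passed, the lowest adjusted exact permutation p being 0.171. With only 2 of 12 pairs at the smallest p the test can give, neither could have passed, however large its difference. Without vehicle 15 and 16 the Kat2b and Kat6b pairs differed by -0.22 and -0.04. Neither pair stayed under an exact permutation p of 0.05 when any 1 FTY720 mouse was left out, and both did without any 1 vehicle mouse. Groups that do not overlap stay apart when 1 mouse is left out. The exact permutation p then ran from 0.0286 to 0.0571 for the Kat2b pair and from 0.0286 to 0.171 for the Kat6b pair. In groups of unequal size it depends on how many assignments reach the same size in the opposite direction. The contrast therefore does not show on which mice the separation rests.

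**Figure D4:**
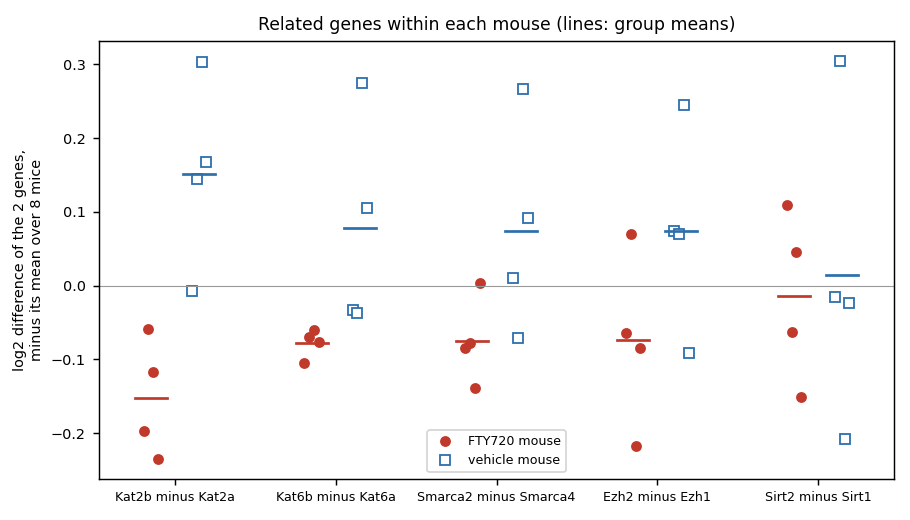
Difference between 2 related genes in each mouse (log2), minus its mean over the 8 mice, with lines at the group means (circles FTY720, squares vehicle). For Kat2b minus Kat2a and Kat6b minus Kat6a every FTY720 mouse lies below every vehicle mouse, and the other 3 pairs overlap.

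Each of the 36 genes was also set against oligodendrocyte markers across the 8 mice. The mean of the 16 measured oligodendrocyte genes, relative to all 8 mice, spanned -0.28 to -0.08 in FTY720 mice, against -0.05 to 0.32 in vehicle mice. All 16 had lower means in FTY720 mice, with a median difference of -0.32. In whole tissue, fewer cells of a type and less RNA per cell cannot be told apart. Over the 8 mice Kat2b followed this mean with Pearson's r of 0.88 (exact permutation p = 0.00330) and Spearman's rho of 0.83 (exact permutation p = 0.0154). Sirt2 had an r of 0.84 (exact permutation p = 0.00737) and a rho of 0.52 (exact permutation p = 0.197). The same pair of values was 0.83 and 0.90 for Rbbp4 (exact permutation p = 0.0149 and 0.00456). For Smarca2 it was 0.76 and 0.81 (exact permutation p = 0.0304 and 0.0218), and for Mta1 0.73 and 0.83 (exact permutation p = 0.0461 and 0.0154).

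These 5 were the genes at an exact permutation p under 0.05 for r among 36 relations, against 7.93% of 12377 genes that are not markers. None passed adjustment over the 36 (lowest adjusted exact permutation p = 0.119 for r and 0.157 for rho). Without vehicle 14 and 16, the mice farthest from the median marker mean, r was 0.94 for Kat2b, 0.92 for Rbbp4 and 0.76 for Smarca2. It was 0.51 for Sirt2 and 0.31 for Mta1, over a narrower range of the marker mean. Other genes of the 36 reached like sizes over the same mice, among them Ezh1 (-0.95), Kat7 (-0.89), Eed (0.86) and Setdb1 (-0.81). A share over all genes was not computed for this setting. With any 1 mouse left out, r was at least 0.76 for Sirt2 and 0.56 for Mta1. After each group's mean was subtracted, r was 0.71 for Kat2b, 0.83 for Sirt2, 0.57 for Rbbp4, 0.47 for Mta1 and 0.36 for Smarca2, given as a description. Kat2a and Smarca4, with r of -0.07 and 0.29 over the 8 mice, were then at 0.78 and 0.68. When any 1 mouse was left out, Kat2b kept an r between 0.84 and 0.95 at an exact permutation p under 0.05, while each of the other 4 had a p above 0.05 without at least 1 mouse. Those mice were vehicle 14 for Sirt2, FTY720 6 or vehicle 16 for Rbbp4, and FTY720 1, FTY720 4, vehicle 13 or vehicle 16 for Smarca2. For Mta1 they were FTY720 1, FTY720 4, FTY720 6, vehicle 14 or vehicle 16. With the probe sets of each gene averaged, r for Rbbp4 was -0.43. The marker mean also differs between the groups, so treatment and marker level cannot be told apart in the pooled values.

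**Figure D5:**
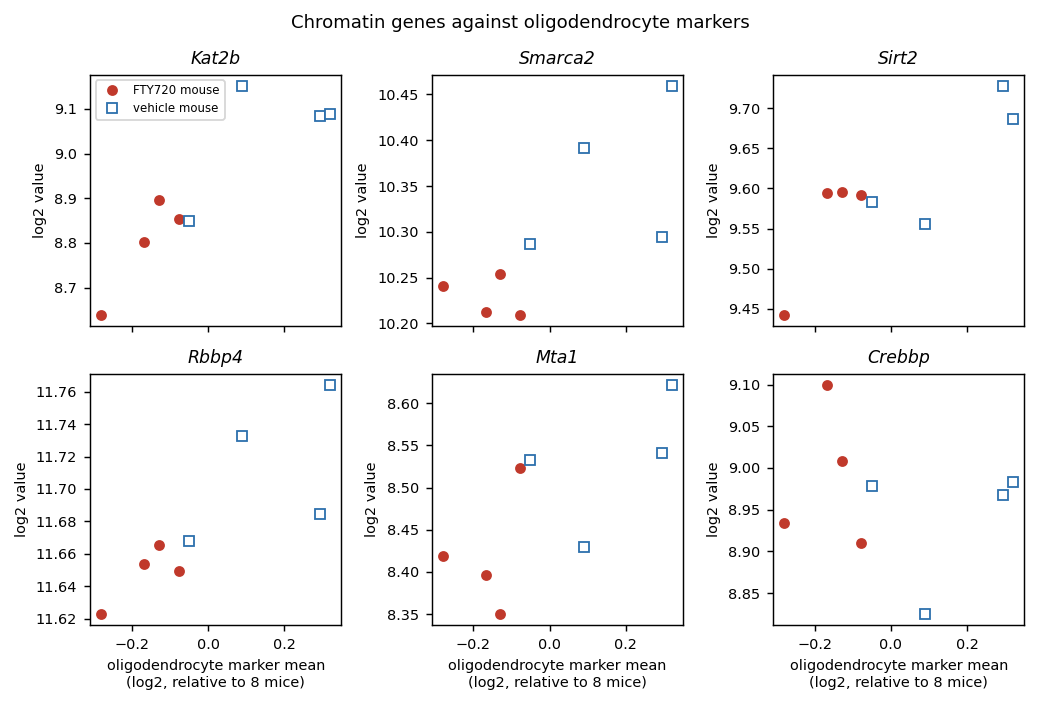
Log2 value of 6 chromatin genes in each mouse against the mean of 16 oligodendrocyte markers, relative to the 8 mice (circles FTY720, squares vehicle). Kat2b, Rbbp4 and Smarca2 are higher where the marker mean is higher, while Crebbp shows no such order.

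The rest of the same machinery was taken from 7 lists of 191 genes, of which 140 were tested. None passed adjustment, and 4 (2.86%) had an unadjusted limma p under 0.05, against 6.64% of all genes, 2 on each side. The median difference of the 140 was 0.0086, with 76 higher and 64 lower. Actl6a, the SWI/SNF actin-related subunit typical of neural progenitors, had the lowest p. It stood at 7.61, 7.66, 7.58 and 7.60 in FTY720 mice, against 7.72, 7.80, 7.78 and 7.92 in vehicle mice, with no overlap and a difference of -0.19 (SE 0.05, 95% interval -0.32 to -0.07) (limma adjusted p = 0.651). Sap30l, a relative of Sap30 in the Sin3 complex, differed by -0.14 (SE 0.05), and all FTY720 mice lay below all vehicle mice.

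On the higher side were Cbx8, a Polycomb reader, at 0.18 (SE 0.06) and Kdm5c, a demethylase of histone H3 lysine 4, at 0.13 (SE 0.04). Neither overlapped between the groups, and both were dim, at mean levels of 5.74 and 5.06 where the median gene stood at 7.17. The other Polycomb genes of lowest p were Rnf2 (0.12) and Jarid2 (-0.12), and the other corepressor partners were Ctbp2 (0.15) and Tle1 (-0.16). Among remodellers followed Chd7 (-0.18) and Dpf1 (0.15), and among demethylases Phf8 (0.09) and Jmjd6 (-0.08). Acetyltransferase partners, histone methyltransferases and DNA methylation genes held no gene at that threshold among 21, 18 and 10 tested. Their leading genes were Ing3 (0.11), Ing4 (0.12) and Ing2 (-0.09), then Kmt5b (0.10), Kmt2e (-0.07) and Setd7 (0.07), and Dnmt3b (-0.11), Zbtb33 (-0.08) and Tet1 (0.06).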

How the data were processed

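The deposited table holds log2 values of 22690 probe sets on 8 arrays, a scale read from the values. Per the submitters' processing notes, Affymetrix Expression Console, MAS5 and RMA were used, with versions, roles and genome build not given in the sources used here. Labelling used 100 ng RNA per the labels' protocols. All values were used as deposited, without further normalization, pseudocount or filter. Control probe sets (64) and those of several genes (691) or no named gene were left out, which left 20380 probe sets of 12393 genes, and a gene took its probe set of highest mean.

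Groups were compared with limma 3.58.1 in R 4.3.3 (lmFit, eBayes, no covariate), checked on simulated data, with Benjamini-Hochberg adjustment over all genes. Pairs of genes and relations across mice used exact permutation tests. The number of mice limits the precision. Slides and scan dates are unknown, and batches were not tested. The members, gene lists, pairs and tests were chosen with earlier results of these data known. Mouse by mouse values are given for members at an unadjusted p under 0.05, those whose groups do not overlap and a list of well-known members, and the 3 genes of lowest p are named in each list of other chromatin genes. Alternatives covered quantile normalization, averaged or restricted probe sets, a filter on dim genes, another variance model, a Gapdh covariate and leaving out mice.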

Additional observations from a re-analysis of the deposited data

Results flagged for a closer look

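In groups of 4 mice, a value was picked out when its gap to the nearest other mouse took up more of the group's range than Dixon's 95% critical value, which chance gives in about 1 in 20 groups. It happened in 4 of 90 groups examined. Crebbp was 8.82 in vehicle 15, with the other vehicle mice between 8.97 and 8.98. Ncoa2 was 5.00 in vehicle 16, with the others between 4.62 and 4.68. Sirt2 was 9.44 in FTY720 6, with the other FTY720 mice between 9.59 and 9.60. The mean of markers of dividing cells and young neurons, relative to all 8 mice, was 0.11 in FTY720 5, with the other FTY720 mice between -0.09 and -0.06.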

How the results depend on the processing

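No gene passed adjustment over all genes under any of the 15 alternatives, and the members' median difference of -0.03 lay between -0.04 and -0.0094 when 1 mouse was left out, and was -0.0072 with averaged probe sets and 0.0011 without _x_at and _s_at probe sets. No paired analysis was made because the labels give no pairing, litter or batch. Leaving out 1 mouse gave between 1 and 3 members at an unadjusted p under 0.05 and between 4 and 7 without overlap. Over all genes the shares then ran from 5.16% to 7.79% at that p and from 6.7% to 8.8% without overlap. Under that p there were also between 4 and 8 other chromatin genes, between 0 and 3 gene pairs and between 3 and 6 relations to oligodendrocyte markers. Members without overlap numbered 2 after quantile normalization (4.59% of all genes) and 2 with averaged probe sets (4.38% of all genes). Without _x_at and _s_at probe sets 1 member was at that p and 1 did not overlap, beside 6.55% and 4.4% of all genes. Without vehicle 15 and 16 these were 0 and 10, with 9 other chromatin genes. Too few mice then remain for any gene pair to reach an exact permutation p under 0.05, so pairs could not be judged there. In that setting 1794 of all 12393 genes did not overlap, and 5.70% of all genes and 6.43% of the other chromatin genes were at that p. With the Gapdh covariate, itself uneven between the groups, they were 506 of all genes and 0 members, with a median difference of 0.017. Averaged probe sets left 3 relations, and r of Rbbp4 became -0.43. Directions turned with averaged probe sets for Rbbp4 (0.10) and Eed (0.025), without _x_at and _s_at probe sets for Rbbp4 (0.16), Rbbp7 (0.041), Sin3b (0.0012) and Rcor1 (0.00096), and with the covariate for Dnmt3a (0.020). The probe set alternatives read other probes by construction, and beyond that the cause was not tested. Only genes whose reported difference exceeded its SE were examined for a turned direction. Kat2b remained under an unadjusted p of 0.05 whichever single mouse was left out, but not without _s_at probe sets (-0.04), without vehicle 15 and 16 (-0.17) or with the covariate (-0.21).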

Other observations

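RefSeq promoter windows were found for 37 of the 41 chromatin genes. They held a median of 29 CG dinucleotides, between 2 and 50, beside 18 for the windows of 9887 tested genes, and a median G and C content of 64.3% beside 59.3%. The CREB site letters (TGACG) were in 13 of the 37 windows (35.1%), beside 28.4% of tested genes, the GC box letters in 25 (67.6%), beside 57.5%, and the letters CCAAT or their reverse complement in 17 (45.9%), beside 38.3%. These are descriptions of sequence, with no test.

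A list of markers of dividing cells, which express Ezh2 and Dnmt1, also held the young neuron genes Dcx, Sox11 and Igfbpl1. Of its 12 genes 11 were measured, of which 9 were lower in FTY720 mice, beside 46.5% of all genes. Their median difference was -0.02. Mki67, Birc5, Top2a, Eomes and Cdk1 were dim, at mean levels from 4.53 to 5.38 where the median gene stood at 7.17. Cdk1, the kinase that drives entry into mitosis, was the 1 of 11 at an unadjusted limma p under 0.05, at -0.30, where 6.64% of all genes were. Top2a and Eomes differed by -0.22 and -0.19, Mki67 and Birc5 by 0.08 and 0.04, and the other 6 by values between -0.04 and -0.00014. Relative to all mice the list spanned -0.09 to 0.11 in FTY720 mice, against -0.04 to 0.15 in vehicle mice.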
